A study of Rattus norvegicus with 12 samples.

Results

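Whole lungs of Sprague-Dawley rats at postnatal day 21 were compared between pups whose growth was restricted in the womb (IUGR, intrauterine growth restriction) and control pups. Growth was restricted by a low protein diet, and the litters behind the pups are not given. The comparison rests on 3 of the 12 arrays of the study, IUGR replicates 1 and 2 and control replicate 1, and on 10097 of 26208 features, those with curated NM transcript accessions. Control replicate 2, the fourth array of day 21, was deposited in another format and entered only as a rebuilt version described below.

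The study had 12 single-colour NimbleGen arrays, with 2 arrays for IUGR and 2 for control at each of days 4, 10 and 21. Each array held RNA pooled from 2 or 3 pups, drawn from 14 IUGR and 15 control pups in all. Any p-value here measures the spread between pools, which may share litters, and with the arrays compared only the IUGR pools give a spread. With 1 control pool as deposited, a difference between IUGR and control is a description of these 3 pools.

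At postnatal day 21 the rat lung has passed through the main burst of septation, in which elastin-bearing ridges divide the saccules into alveoli, and its capillary network is maturing. Surfactant from alveolar type 2 cells keeps the air spaces open, and flat alveolar type 1 cells form the surface for gas exchange. Whole lung also carries tissue that is not alveolar: cardiac muscle sheaths the pulmonary veins in rodents, fat lies around the hilum and mediastinum, and mast cells sit along airways, vessels and pleura.

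The defining genes of lung were bright on every array, which matches the tissue label. Sftpc, a surfactant protein of alveolar type 2 cells, had a log2 intensity of 15.53 and 15.62 in IUGR replicates 1 and 2 and 15.56 in control replicate 1. Scgb1a1, the secretoglobin of airway club cells, was at 15.41, 15.37 and 15.42, and Pdpn, a membrane protein of alveolar type 1 cells, at 15.22, 15.19 and 15.19. For these 3 genes the IUGR and control arrays lay within 0.09 of each other.

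Median intensity was 278.5, 270.1 and 274.2 on the 3 arrays, whose log2 values correlated at 0.990 to 0.992 over features. Control replicate 2 as deposited correlated with control replicate 1 at 0.111. After its values were taken in runs of 3 per feature, summarised and mapped onto the distribution of the other arrays, 8714 features had a value and the correlation was 0.977. The runs were set by aligning them to the day 10 arrays, which builds in part of this correlation. With IUGR replicates 1 and 2 it was 0.976 and 0.975, so these values do not tell control from IUGR. The rebuilt array was noisier, with an SD of differences from the other day 21 arrays of 0.68 to 0.71, against 0.41 to 0.44 among the 3 arrays. Its values are given beside the others as "rebuilt" and entered no main test or count.

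A feature was called past the fold where both IUGR arrays lay at least 1 on the log2 scale (2-fold) on the same side of control replicate 1. Of the 10097 features 50 were past the fold and higher in IUGR (0.495%) and 71 were past it and lower (0.703%). Over genes these counts were 45 of 9490 higher (0.474%) and 67 lower (0.706%). The IUGR arrays differed from each other by at least 1 at 242 features, while IUGR replicates 1 and 2 differed from the control array at 326 and 284. In limma 1 feature passed (0.0099% of those tested), that of Ucp1, with an adjusted p of 0.0392. At an unadjusted p of 0.05, 551 features passed, where chance gives 504.9.

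**Figure D1:**
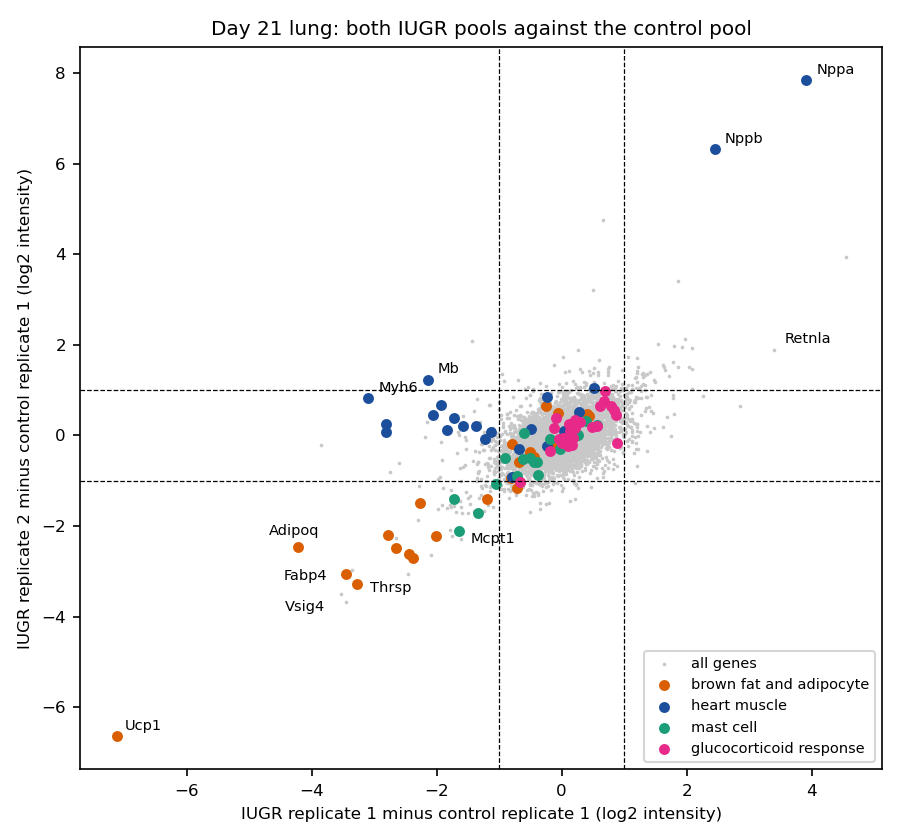
Log2 intensity of IUGR replicate 1 (x axis) and IUGR replicate 2 (y axis), each minus control replicate 1, for 9490 genes at day 21. Dashed lines mark a difference of 1. Fat genes lie low on both axes, Nppa and Nppb lie high on both, and many heart muscle genes lie low on the x axis only. Because both axes subtract the same control array, the cloud is stretched along the diagonal.

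Among the gene lists compared, that of brown fat and fat cells had the most members past the fold on the lower side. Of its 27 measured members 11 were past the fold and lower in IUGR and 0 were higher, against 0.706% and 0.474% of all genes. The median difference over the list was -0.84, against 0.00 over all genes, and both IUGR arrays were below control replicate 1 at 21 members, against 31.1% of all genes. Relative to the rebuilt control the list median was -0.46, and 12 of the 22 members with a rebuilt value were below both controls, against 15.2% of all genes. In bulk tissue, fewer cells of a type and less RNA per cell cannot be told apart, here and for the groups below.

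Ucp1 uncouples respiration from ATP synthesis and so lets brown fat make heat. Its log2 intensity was 6.12 and 6.60 in IUGR, 13.23 in control replicate 1 and 8.57 rebuilt, so control replicate 1 was 118-fold above the IUGR mean. Both IUGR arrays were below both controls, and the controls themselves differed by more than the rebuilt array did from IUGR. The difference of -6.88 was the only one past limma's adjusted threshold (adjusted p = 0.0392), a test whose spread comes from the IUGR pools alone and does not include that between the controls. It no longer passed with quantile normalisation, median centring or an offset of 100 on the intensities. Its adjusted p was 0.929 with the rebuilt array as a second control, for a difference of -4.55.

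Genes of fat synthesis and storage followed. Thrsp, a regulator of fat synthesis, was at 5.21 and 5.21 in IUGR, 8.49 in control replicate 1 and 7.15 rebuilt. Fabp4, which carries fatty acids in fat cells and macrophages, was at 10.38 and 10.77 against 13.83 and 11.40 rebuilt. For both genes the IUGR arrays lay below both controls, and control replicate 1 was 9.66-fold and 9.54-fold above the IUGR mean (limma adjusted p = 0.093 and 0.16). Cidec, which fuses lipid droplets, was at 7.16 and 6.98 in IUGR, 9.60 in control replicate 1 and 7.72 rebuilt. Aqp7, the glycerol channel of fat cells, was at 7.87 and 7.67 against 9.89 and 8.21 rebuilt.

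Secreted and enzymatic fat genes showed the same order against control replicate 1. Adipoq, the hormone adiponectin, was at 5.72 and 7.48 in IUGR and 9.94 in control replicate 1, with no rebuilt value. Cfd, the complement protease adipsin, was at 8.12 and 7.92 against 9.32 and 8.98 rebuilt. Gpd1, which makes the glycerol backbone of triglyceride, was at 5.66 and 5.34 in IUGR and 8.04 in control replicate 1, but 5.70 rebuilt, next to the IUGR values. Pck1, an enzyme of glycerol synthesis in fat, was at 6.09 and 6.26 against 8.75, with no rebuilt value.

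Mitochondrial genes typical of brown fat and muscle were also among the 11. Cpt1b, which lets fatty acids into mitochondria, was at 7.20 and 7.79 in IUGR, 9.98 in control replicate 1 and 8.31 rebuilt. Cox8b, a respiratory chain subunit, was at 9.55 and 10.33 against 11.82, while the rebuilt value of 10.16 lay between the IUGR arrays. Other fat genes were lower short of the fold, differed little or went the other way. Over the list, both IUGR arrays were below control replicate 1 at 21 of 27 members and above it at 2. Lipe was at 9.12 and 9.21 in IUGR against 9.81 and 9.40 rebuilt. Elovl6 was at 6.10 and 5.97 against 6.90, with no rebuilt value. Leptin (Lep) was dim on all arrays, at 4.86 and 5.74 in IUGR and 5.10 in control replicate 1. Lpl, the lipase that frees fatty acids from lipoproteins, was at 12.57 and 12.50 against 12.70 and 13.01 rebuilt, below both controls by less than 1. Ppargc1a, a coactivator of mitochondrial genes, was at 10.83 and 10.89 against 10.42 and 10.40 rebuilt, above both.

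The wider lists of fuel use differed less. Of 28 fatty acid oxidation genes 0 were past the fold and higher and 2 lower, Cpt1b and the lipid-sensing receptor Ppara, with both IUGR arrays below control replicate 1 at 18 members and a median of -0.26. Ppara was at 9.24 and 9.68 in IUGR, 11.53 in control replicate 1 and 8.35 rebuilt, so the controls lay on opposite sides of IUGR. Of 36 respiratory chain genes 1 was past the fold, Cox8b, lower, with 25 below in both IUGR arrays and a median of -0.16. Over all genes, 31.1% were below in both. The summed intensity of the fat list was 17960 and 18157 in IUGR and 49918 in control replicate 1, and its part in the values of these lists was not tested.

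Heart muscle genes split the IUGR pools. Of 22 members 2 were past the fold and higher in IUGR, Nppa and Nppb, and 0 lower. Over all genes 0.474% were past it and higher and 0.706% lower. The list median relative to control replicate 1 was -1.18 in IUGR replicate 1 and 0.23 in IUGR replicate 2. The median over both arrays was -0.55 relative to control replicate 1 and 0.46 relative to the rebuilt control, so its sign depended on the control. IUGR replicate 2 was at least 1 above IUGR replicate 1 at 15 of 22 members, against 1.32% of all genes, and at least 1 below it at 0, against 1.1% of all genes. Summed intensity of the list was 16337 in IUGR replicate 1, 72093 in IUGR replicate 2 and 45315 in control replicate 1.

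Contractile genes mostly shared an order: IUGR replicate 2 and control replicate 1 high, IUGR replicate 1 low. Myh6, the atrial myosin heavy chain, was at 8.79 and 12.71 in IUGR, 11.89 in control replicate 1 and 10.88 rebuilt. Tnni3, the cardiac inhibitory troponin, was at 9.02 and 11.91 against 11.83 and 11.10 rebuilt. Mb, the oxygen store myoglobin, was at 6.03 and 9.40 against 8.17 and 7.08 rebuilt. At these 3 genes the IUGR pools enclosed both controls, so group and pool spread overlapped. Gata4, a transcription factor of heart muscle, was near level at 7.95, 7.97 and 8.19.

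The genes for natriuretic peptides had another order, which the atrial myosin gene Myh6 did not share. Kcnj3 and Sln, also on the list, kept the order of the contractile genes. Kcnj3 was at 6.27 and 8.06 in IUGR against 7.85 in control replicate 1, and Sln at 10.23 and 10.86 against 10.72. Nppa, the atrial natriuretic peptide, was at 9.59 and 13.51 in IUGR, 5.67 in control replicate 1 and 3.72 rebuilt. Nppb, the B-type natriuretic peptide, was at 6.34 and 10.21 against 3.89 and 3.43 rebuilt. Both IUGR arrays were above both controls for each gene, including IUGR replicate 1, the array with the lowest contractile genes. The IUGR mean was above control replicate 1 by 5.88 for Nppa (limma adjusted p = 0.777) and 4.39 for Nppb (adjusted p = 0.861) on the log2 scale, with the IUGR pools themselves 3.93 and 3.87 apart. The control values are dim, so the size of these differences is not firm. Bmp10, a growth factor of the right atrium that is not on the list, was at 6.39 and 10.49 in IUGR, 5.74 in control replicate 1 and 4.92 rebuilt.

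Promoters of Nppa, Nppb and Bmp10 are shown, a choice made after their values were seen. Nppa and Nppb were past the fold and higher, along with other genes. Bmp10 was not past it, as IUGR replicate 1 was 0.66 above control replicate 1. The sequences are from RefSeq (GRCr8), 250 bases before to 50 bases after each annotated start, read along the strand of the gene. Capitals mark AGATAA or TGATAA on either strand, the letters that factors of the GATA family bind.
Nppa (chr5:163711934-163712233, plus strand): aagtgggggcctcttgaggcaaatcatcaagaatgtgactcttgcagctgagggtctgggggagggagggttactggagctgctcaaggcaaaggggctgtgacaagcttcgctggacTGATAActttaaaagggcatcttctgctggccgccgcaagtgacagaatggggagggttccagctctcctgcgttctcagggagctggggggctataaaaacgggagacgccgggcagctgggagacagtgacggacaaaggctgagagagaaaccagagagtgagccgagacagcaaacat
Nppb (chr5:163699758-163700057, plus strand): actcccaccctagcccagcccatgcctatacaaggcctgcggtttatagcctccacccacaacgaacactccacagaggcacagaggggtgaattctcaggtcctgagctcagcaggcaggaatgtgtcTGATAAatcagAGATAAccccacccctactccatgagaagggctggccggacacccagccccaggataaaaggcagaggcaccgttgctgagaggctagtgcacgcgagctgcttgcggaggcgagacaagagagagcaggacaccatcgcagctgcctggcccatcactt
Bmp10 (chr4:121429125-121429424, plus strand): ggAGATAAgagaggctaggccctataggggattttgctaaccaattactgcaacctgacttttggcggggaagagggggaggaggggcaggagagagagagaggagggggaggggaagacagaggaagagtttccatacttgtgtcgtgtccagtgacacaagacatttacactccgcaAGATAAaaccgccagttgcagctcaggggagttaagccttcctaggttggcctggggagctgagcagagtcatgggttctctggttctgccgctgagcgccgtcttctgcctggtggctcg
The match begins 132 bases before the start in Nppa, 121 and 110 bases before it in Nppb, and 248 and 71 bases before it in Bmp10. Among the promoters of the heart list 6 of 15 found in the table held a match (40%), against 18.9% of 33469 rat promoters. A match is a description of letters and not a site or a cause, and the search was chosen after the values were seen.

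**Figure D2:**
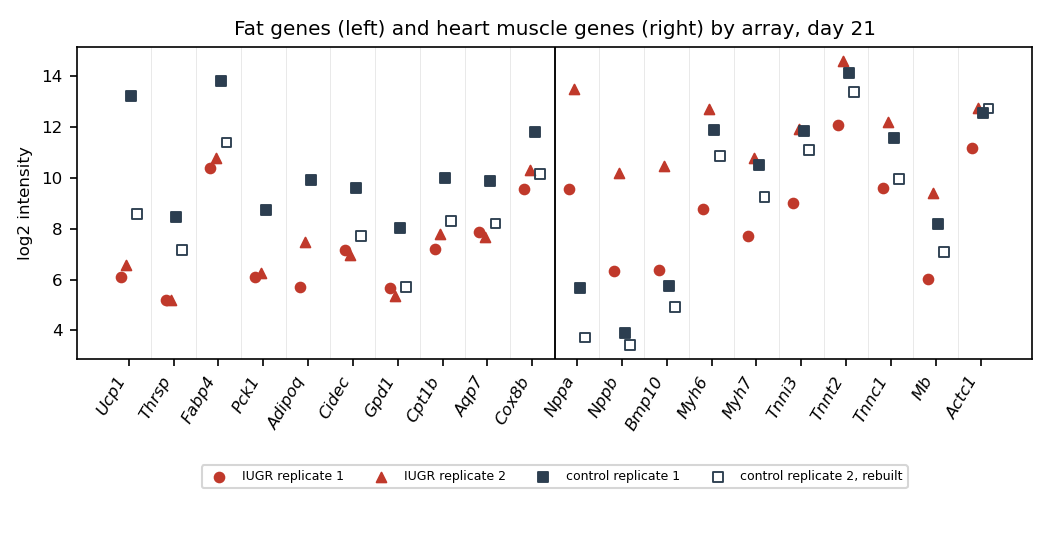
Log2 intensity (y axis) of 10 fat genes, left of the line, and 10 heart muscle genes, right of it, on each day 21 array. Filled red symbols are the IUGR arrays, the filled square is control replicate 1 and the open square the rebuilt control replicate 2. Fat genes are lower in both IUGR arrays than in control replicate 1. All 10 heart genes are highest in IUGR replicate 2. Nppa, Nppb and Bmp10 are lowest in the rebuilt control. The other heart genes are lowest in IUGR replicate 1, with the rebuilt control near it at Tnnc1 (9.63 and 9.95).

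The mast cell list had the next most members past the fold on the lower side, 4 of 18 measured, with 0 higher. Over all genes the shares were 0.706% and 0.474%. The list median was -0.51 relative to control replicate 1 and -0.47 relative to the rebuilt control. Both IUGR arrays were below control replicate 1 at 13 members, against 31.1% of all genes. They were below both controls at 8 of 16, against 15.2% of all genes. No member passed limma's adjusted threshold.

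Proteases of the mast cell granule came first. Mcpt1, a chymase-type protease, was at 9.86 and 9.40 in IUGR and 11.51 in control replicate 1, with no rebuilt value. Mcpt9, a protease of the same family, was at 8.60 and 8.58 against 9.64 and 9.58 rebuilt. Mcpt8, a family member known from mouse basophils, was at 8.94 and 8.75 against 9.65 and 9.84 rebuilt. For Mcpt9 and Mcpt8 the IUGR arrays lay within 0.2 of each other, the controls likewise, and the groups did not overlap.

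The IgE receptor showed the same direction. Fcer1a, its IgE-binding alpha chain, was at 5.14 and 5.48 in IUGR, 6.87 in control replicate 1 and 7.73 rebuilt. Ms4a2, its signalling beta chain, was at 7.05 and 6.68 against 8.39 and 7.65 rebuilt. Both IUGR arrays were below both controls for each chain, with control replicate 1 2.95-fold and 2.88-fold above the IUGR mean (limma adjusted p = 0.403 and 0.424). Il1rl1, the receptor for interleukin-33, was at 9.75 and 9.59 against 10.19 and 10.10 rebuilt.

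Some other members of the list differed little, overlapped the controls or lay above them. Tpsab1, a tryptase, was at 8.20 and 8.86 in IUGR against 8.81 and 8.63 rebuilt, and Hpgds, a prostaglandin D synthase, at 8.69 and 8.62 against 8.30 and 8.25 rebuilt, above both. The protease Mcpt4 was at 6.78 and 6.89 against 6.97 and 8.09 rebuilt, close to control replicate 1. Kit, the stem cell factor receptor, was at 13.42 and 13.16 in IUGR and 13.15 in control replicate 1. Srgn, the proteoglycan of many blood cell granules, was at 13.24 and 12.98 against 13.10. Gata2, a transcription factor of mast cells and endothelium, was at 9.75 and 9.40 against 9.18 and 10.08 rebuilt.

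Promoters of a protease and of a receptor chain from this group are given for comparison with Nppa, Nppb and Bmp10. The format and the letters in capitals are the same.
Mcpt1 (chr15:33841356-33841655, plus strand): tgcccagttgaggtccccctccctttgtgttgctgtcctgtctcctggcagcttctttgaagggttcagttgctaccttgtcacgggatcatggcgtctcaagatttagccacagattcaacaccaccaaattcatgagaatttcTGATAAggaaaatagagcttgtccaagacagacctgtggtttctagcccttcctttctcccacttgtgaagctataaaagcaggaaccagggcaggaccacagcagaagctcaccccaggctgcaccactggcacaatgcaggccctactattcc
Fcer1a (chr13:88224630-88224929, minus strand): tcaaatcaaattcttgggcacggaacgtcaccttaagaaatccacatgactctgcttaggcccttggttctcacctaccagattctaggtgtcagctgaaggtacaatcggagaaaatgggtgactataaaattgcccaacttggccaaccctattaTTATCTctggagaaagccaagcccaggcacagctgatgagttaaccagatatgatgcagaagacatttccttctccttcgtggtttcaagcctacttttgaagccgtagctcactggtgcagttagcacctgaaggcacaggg
The match begins 105 bases before the start in Mcpt1 and 93 bases before it in Fcer1a, where it lies on the other strand and reads TTATCT. Mcpt9 held none, and 4 of 16 promoters of the mast cell list held a match (25%), near the 18.9% of all rat promoters. In the fat list 1 of 18 held a match (5.56%). The same table held no entry for Ms4a2.

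Glucocorticoid-response genes leaned to the higher side without any member past the fold. Both IUGR arrays were above control replicate 1 at 14 of 26 members and below it at 3, against 32.2% and 31.1% of all genes, with a median of 0.18. Relative to the rebuilt control the median was -0.04, and 6 of 24 members were above both controls, against 17.7% of all genes. None was below both controls, against 15.2% of all genes.

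Single members show how the controls differed. Fkbp5, a chaperone partner of the glucocorticoid receptor, was at 10.22 and 10.31 in IUGR, 9.54 in control replicate 1 and 10.85 rebuilt. Klf9, a transcription factor, was at 8.16 and 7.89 against 7.33 and 8.90 rebuilt, and Tsc22d3, the leucine zipper protein GILZ, at 10.35 and 9.94 against 9.48 and 10.48 rebuilt. At these 3 genes IUGR lay between the controls.

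Other members were above both controls. Zbtb16, a zinc finger repressor, was at 11.98 and 12.26 in IUGR, 11.28 in control replicate 1 and 11.51 rebuilt. Per1, a clock gene with glucocorticoid input, was at 12.73 and 12.74 against 12.10 and 11.34 rebuilt. The receptor itself, Nr3c1, was at 11.79 and 11.93 against 11.67 and 11.63 rebuilt. Hsd11b1, which regenerates active glucocorticoid, lay between the controls, at 14.18 and 14.21 against 14.02 and 14.34 rebuilt. The letters AGAACA, which match part of the binding site of that receptor, were found on either strand in 1 of 20 promoters of the list (5%), against 20.7% of all promoters.

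**Figure D3:**
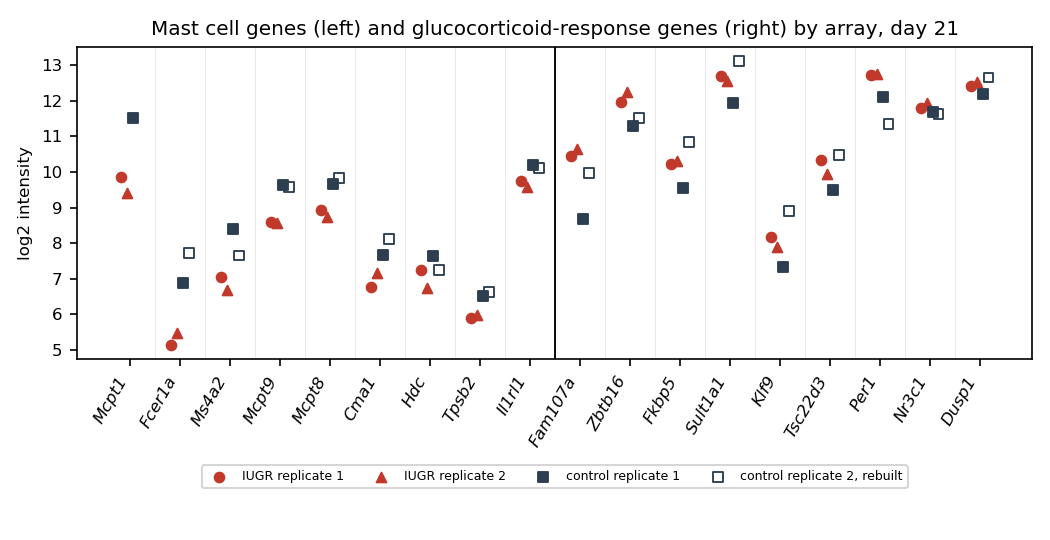
Log2 intensity (y axis) of 9 mast cell genes, left of the line, and 9 genes right of it, namely Fam107a and 8 glucocorticoid-response genes, on each day 21 array, with symbols for IUGR replicates, control replicate 1 and the rebuilt control. Mcpt9, Mcpt8 and Fcer1a are lower in IUGR than in both controls, while Fkbp5, Klf9 and Tsc22d3 in IUGR lie between the controls.

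Asking which bright features differed from both controls gave a short list. Of features past the fold whose brighter side reached a log2 intensity of 8, 15 were higher and 31 lower, and 14 and 25 of them had a rebuilt value. Both IUGR arrays lay on the same side of the rebuilt control at 12 higher and 19 lower features, and were at least 1 away from it at 5 and 7. Relative to the rebuilt array alone, 225 of all 8714 features were past the fold and higher and 425 lower. Over all genes 17.7% were above both controls in both IUGR arrays and 15.2% below. The same IUGR arrays enter the comparison with each control, so these are not separate replications. Only the brighter side had to reach 8, so the other can be dim, as for Thrsp in IUGR (5.21). The 7 lower features belonged to Ucp1, Vsig4, Thrsp, Lgals5, Or6z1, Efcab3 and Clic2, and the 5 higher ones to Nppa, Nppb, Retnla, Saa4 and Aurkb. Lgals5, Or6z1, Efcab3 and Clic2 fall outside the rule for naming genes and were chosen after their values were seen.

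Vsig4, the complement receptor of tissue macrophages, was at 6.50 and 6.53 in IUGR, 10.04 in control replicate 1 and 9.71 rebuilt, an 11.5-fold difference from control replicate 1. Its adjusted p in limma was 0.083 with the rebuilt array as a second control, where no feature passed. Vsig4 is not on the list of monocyte and macrophage genes, of which 20 were measured. That list had a median of -0.11 and 1 member past the fold, Fabp4.

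Lgals5, a rat galectin of maturing red cells, was at 10.27 and 10.43 in IUGR, 11.99 in control replicate 1 and 12.36 rebuilt. Clic2, an intracellular chloride channel protein, was at 11.51 and 11.79 against 13.03 and 13.24 rebuilt. In both cases IUGR was at least 1 below either control. Of 16 red cell genes 1 was past the fold, lower, the embryonic globin Hbe1 at 5.93 and 6.19 against 7.61 and 6.32 rebuilt, and 12 were below control replicate 1 in both IUGR arrays (median -0.32), against 31.1% of all genes. Of the 13 red cell genes with a rebuilt value 4 were below both controls, against 15.2% of all genes, and the median relative to the rebuilt control was -0.17. The adult globin Hbb was at 15.56 and 15.62 in IUGR and 15.63 in control replicate 1.

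On the higher side Retnla, the resistin-like molecule of alternatively activated macrophages and lung epithelium, was at 10.63 and 9.11 in IUGR, 7.22 in control replicate 1 and 7.32 rebuilt. Saa4, a serum amyloid A protein of plasma lipoprotein, was at 9.44 and 8.92 against 7.41 and 6.75 rebuilt. Aurkb, a kinase of chromosome separation, was at 11.82 and 11.89 against 10.54 and 10.39 rebuilt. For each gene both IUGR arrays lay above both controls, with the IUGR mean 6.27-fold, 3.43-fold and 2.49-fold above control replicate 1. Of the other 20 measured cell cycle genes none was past the fold, and the list median was -0.07.

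Several features past the fold did not differ from the rebuilt control in the same way. Fam107a, an actin-associated protein, was at 10.46 and 10.64 in IUGR, 8.67 in control replicate 1 and 9.97 rebuilt. Impg1, a proteoglycan known from the retina, was at 8.03 and 7.86 against 5.93 and 7.69 rebuilt. Pdia3, a disulfide isomerase of the endoplasmic reticulum, was at 14.87 and 14.94 against 13.57 and 14.67 rebuilt. IUGR was above both controls at these 3 genes but within 0.7 of the rebuilt one. Pcdhgc3, a protocadherin, was on average 1.69 higher in IUGR than in control replicate 1, at 9.22, while the rebuilt control, at 11.69, was above both IUGR arrays.

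C6, a component of the complement attack complex, was at 10.42 and 10.42 in IUGR and 9.06 in control replicate 1, with no rebuilt value. It was the only one of 31 complement and coagulation genes past the fold and higher. S100b, a calcium-binding protein of Schwann cells and fat, was at 7.74 and 8.25 against 9.08 and 9.18 rebuilt, below both controls.

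Genes of the lung's own cells and matrix differed little. No member of the alveolar type 1, alveolar type 2, endothelium, airway, elastic fibre, interstitial collagen or myofibroblast lists was past the fold. Endothelial genes were above control replicate 1 in both IUGR arrays at 13 of 21 members and below it at 4 (median 0.11), against 32.2% and 31.1% of all genes. Against both controls 7 of 19 were above (17.7% of all genes) and 2 below (15.2%), and the median relative to the rebuilt control was -0.11. Alveolar type 1 genes were above at 7 of 13 and below at 0 (median 0.14), though relative to the rebuilt control the median was -0.18. Airway genes were above at 10 of 17 and below at 2 (median 0.20, and -0.04 relative to the rebuilt control), and alveolar type 2 genes had a median of 0.01 over 14.

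Kdr, the main receptor for vascular endothelial growth factor, was at 13.38 and 13.37 in IUGR, 13.02 in control replicate 1 and 12.85 rebuilt. Its ligand Vegfa was at 13.06 and 13.28 against 13.14 and 13.43 rebuilt, and Nos3, the endothelial nitric oxide synthase, at 6.79 and 6.91 against 7.06 and 7.31 rebuilt. Kdr was above both controls by less than 1, Nos3 below both, and Vegfa overlapped (limma unadjusted p = 0.172, 0.398 and 0.919 for Kdr, Nos3 and Vegfa).

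Of the septation genes, Eln, the elastin precursor, was at 10.61 and 10.44 in IUGR, 10.62 in control replicate 1 and 10.97 rebuilt. Loxl1, which crosslinks elastin, was at 10.03 and 9.61 against 9.85 and 9.52 rebuilt, and Fbln5, which anchors it, at 12.84 and 12.60 against 12.62 and 12.55 rebuilt. Both IUGR arrays were below control replicate 1 at 4 of 9 elastic fibre genes and above it at 0, with a median of -0.03. Igf1, a growth factor, was at 12.72 and 12.60 against 12.69 and 12.25 rebuilt, and the mesenchymal growth factor Fgf10 at 10.10 and 9.50 against 10.09 and 9.69 rebuilt. Among surfactant genes Sftpd, the collectin D, was at 10.70 and 10.17 against 9.93, the widest difference of the 4 surfactant proteins measured. The IUGR arrays overlapped the controls for Loxl1, Fbln5, Igf1 and Fgf10, and Eln was below both controls by a margin smaller than the gap between the IUGR arrays.

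**Figure D4:**
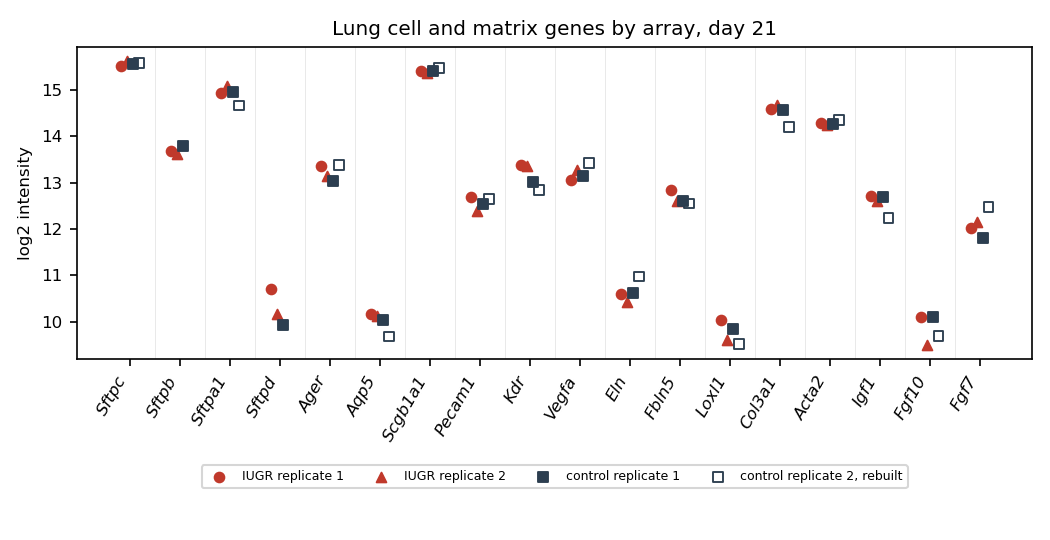
Log2 intensity (y axis) of 18 lung cell, matrix and growth factor genes on each day 21 array, with symbols for IUGR replicates 1 and 2, control replicate 1 and the rebuilt control. None of the 18 is past the fold. Kdr, Aqp5 and Col3a1 are above both controls in both IUGR arrays, and Eln and Scgb1a1 below both. Over all genes the shares are 17.7% and 15.2%.

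Relative to control replicate 1, immune lists other than mast cells had medians nearer to 0 than the mast cell list. Relative to the rebuilt control the median was -0.75 for B lymphocyte, -0.55 for interferon-induced and -0.46 for neutrophil genes. It was 0.15 for MHC class II, 0.13 for MHC class I and 0.13 for inflammatory cytokine genes. Below both controls were 6 of 15 interferon-induced and 5 of 11 neutrophil genes, with 1 and 2 above both. B lymphocyte genes were below control replicate 1 in both IUGR arrays at 4 of 7 members and above at 0 (median -0.29), against 31.1% and 32.2% of all genes. All 4 were below both controls, against 15.2% of all genes. Cd79b, a chain of the B cell receptor, was at 8.53 and 8.40 in IUGR against 8.89 and 9.42 rebuilt. T lymphocyte and thymus genes differed between the IUGR pools, with a median of 0.08 in replicate 1 and -0.39 in replicate 2 relative to control replicate 1. Dntt, the enzyme that adds bases to receptor genes in the thymus, was at 8.20 and 8.02 against 9.04 and 8.54 rebuilt. Mmp8, the neutrophil collagenase, was at 11.39 and 11.90 against 12.46 and 12.47 rebuilt, below both controls.

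**Figure D5:**
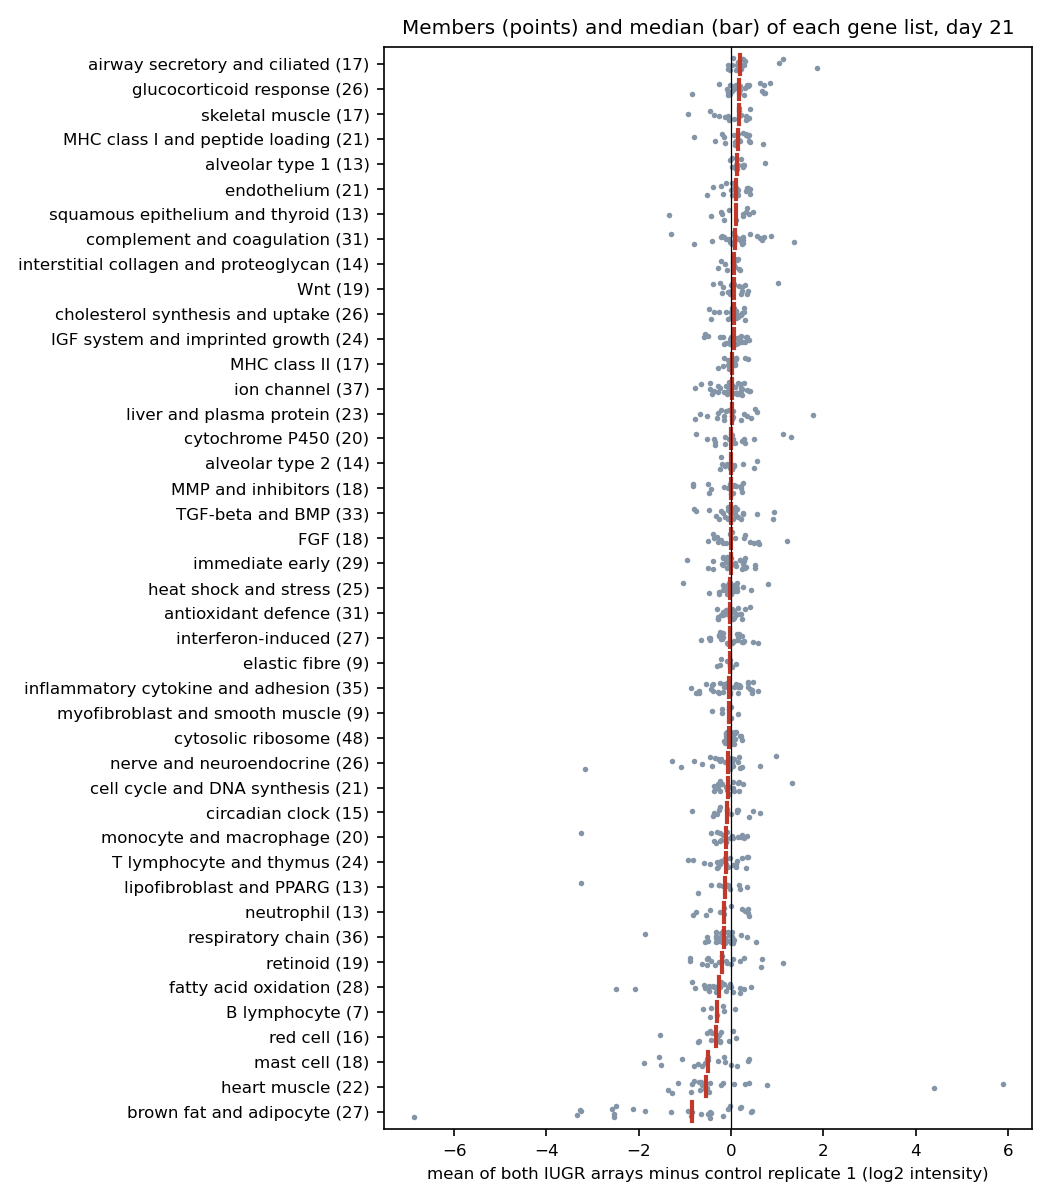
Mean of both IUGR arrays minus control replicate 1 (x axis, log2 intensity) for each measured member (points) and the median (red bar) of each gene list, with the number measured in parentheses. Brown fat, heart muscle and mast cell lists have the lowest medians, at -0.84, -0.55 and -0.51, though that of heart muscle is 0.46 relative to the rebuilt control, and no list has a median above 0.20.

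Days 4 and 10 were normalised apart from day 21, so their differences are set beside those of day 21 with no test between days. At day 4 Ucp1 was at 7.91 and 12.02 in IUGR and at most 8.79 in controls, where IUGR replicate 1 was below both controls and the mean difference of 1.57 came from replicate 2. At day 10 both IUGR arrays were above both controls, by a mean of 3.87, against -6.88 at day 21. The fat list had medians of 0.14, 0.30 and -0.84 at days 4, 10 and 21. Nppa at day 4 was at 7.46 and 12.08 in IUGR against 10.04 and 7.94, and Myh6 at 11.13 and 13.27 against 11.98 and 11.19. For both genes IUGR replicate 1 was the lowest array of day 4. At day 10 both IUGR arrays were above both controls, by a mean of 2.35 for Nppa and 2.01 for Myh6, against 5.88 and -1.14 at day 21. The mast cell list had medians of 0.12 and 0.07 at the earlier days and -0.51 at day 21. For glucocorticoid-response genes the medians were -0.00, -0.03 and 0.18.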

How the data were processed

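The authors deposited a linear intensity for each feature, made with RMA per the submitters' processing notes, which give no version. Values were analysed as log2 intensity without further normalisation. Rows with XM accessions were out of register by 28 places at day 21 and were left out. Precision is limited by the number of arrays.

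Features were named through RefSeq accessions (GRCr8): 9599 had 1 symbol and 498 none. Where a gene had several features, the brightest over the 3 arrays was used. IUGR was compared with control replicate 1 by the fold rule and with limma 3.58.1 in R 4.3.3 (1 residual degree of freedom, Benjamini-Hochberg adjustment over 10097 features), both tested on simulated data. Control replicate 2 was rebuilt by aligning its runs of 3 values to the day 10 arrays, taking 1 value per feature and mapping by quantiles.

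Genes named were the 15 higher and 15 lower bright features (log2 of at least 8) with the largest smaller difference, up to 4 members of each list, a panel of lung genes, tissue markers and the genes that differed most between the IUGR pools. Further members of the fat, heart, mast cell, nerve and glucocorticoid lists were shown after their values were seen. A gene that the rule takes is not reported here. The members and lists were chosen with earlier results of these data known. Promoters were also searched for AGAACA in Fkbp5, Per1, Sult1a1 and Fam107a (1 match each in the last 2), CACGTG in Per1 (0 matches; 6.42% of promoters), TGACGTCA in Ucp1 (0 matches; 1.83%) and TGACG in Ucp1 (1 match; 21.2%). Alternatives covered scaling, offset, dim features, fold threshold, each IUGR array left out, the XM rows and 3 uses of control replicate 2.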

Additional observations from a re-analysis of the deposited data

Results flagged for a closer look

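Control day 21 replicate 2 was outside the comparison, yet its values, rebuilt from groups of 3, correlated with control replicate 1 at 0.977. It is flagged as data not used as deposited. The rebuilding aligned its values to the day 10 arrays and mapped them onto the distribution of the day 21 arrays. Part of the correlation is therefore built in. The correlation with IUGR replicates 1 and 2 was 0.976 and 0.975, so it does not mark the array as a control.

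At several genes past the fold at day 21, all IUGR arrays lay on the opposite side of all control arrays at an earlier day. Others kept their side, such as Nppa at day 10, Aurkb at days 4 and 10 and Crebl2 at day 4. Only genes on the opposite side are listed below, and genes of each kind were not counted. The difference between days was not tested, and the higher lowest intensity at days 4 and 10 keeps sizes from being compared between days. For scale, both IUGR arrays were above both controls at 1884 of 9490 genes at day 4 and at 1683 at day 10, and below both at 1674 and 2458.

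Fat and lipid genes, lower in IUGR at day 21, were higher at day 10 by 3.87 for Ucp1, 2.64 for Fabp4, 2.48 for Adipoq, 1.51 for Cox8b, 0.94 for Aqp7, 0.94 for Gpd1, 0.88 for Cpt1b, 0.86 for Pck1, 0.83 for Cidec, 0.71 for Ppara and 0.48 for Thrsp. Acvr1c was higher by 0.40, Apod by 1.01 and Mbp by 0.32 at day 10 (0.33 at day 4 for Mbp). Among mast cell genes Mcpt1 was higher in IUGR by 0.65 at day 4 and 0.47 at day 10, Mcpt9 by 0.43 and Fcer1a by 0.27 at day 10.

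Genes higher in IUGR at day 21 were lower at day 10 for Saa4 (-0.60), Cyp2j4 (-0.59), Fam107a (-0.47), Slco1a5 (-0.29), Impg1 (-0.27) and Pcdhgc3 (-0.07). At day 4 they were lower for Retnla (-0.79), Cyp11a1 (-0.34), Inhca (-0.31), Impg1 (-0.19) and Pdia3 (-0.19). C6 was lower by -1.31 at day 4 and -1.51 at day 10.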

How the results depend on the processing

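With 1 usable control pool, every count leans on that array, and depth in the sense of signal over background limits the dim features. The 50 higher and 71 lower features past the fold became 14 and 22 with log2(intensity + 100), 26 and 35 with the dimmest 30% left out, 147 and 179 with XM features moved back and added, 218 and 246 at a 1.5-fold threshold and 3 and 15 at a 4-fold threshold. Without IUGR replicate 1 or 2 in turn they ranged from 122 to 145 and from 162 to 181. Control replicate 2 as deposited gave 2002 and 3941. Rebuilt in place of control replicate 1, an alternative chosen after seeing the data, it gave 225 and 425, and as a second control it gave 37 and 133.

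The count past limma's adjusted threshold was 1. It was 0 with quantile normalisation (597 at an unadjusted p of 0.05), median centring (537), log2(intensity + 100) (476), control replicate 2 rebuilt as a second control (377) and control replicate 2 as deposited (10). It was 269 with the rebuilt array in place of control replicate 1 and 455 with the spread from 11 arrays of all days. The latter passed 107 of the 121 features past the fold, which were picked for the same difference on the same arrays. That overlap is therefore not a separate test. Fabp4, Adipoq, Aqp7, Cox8b, Nppa and Nppb were among those that did not pass. The spread draws on the earlier days, with a lowest intensity of 113 to 122, against 5.65 to 6.02 on the arrays compared. It may therefore be too small for dim features. The replicate block with control replicate 2 rebuilt gave 0 (411 unadjusted). Deviations of same-numbered arrays correlated at -0.03 over 8714 features. The control side of this value includes the noisier rebuilt array, so it cannot tell whether same-numbered pools share litters or a batch.

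The 11 fat genes past the fold became 17 with control replicate 2 as deposited and 4 of 22 with it rebuilt in place of control replicate 1. The 4 mast cell genes became 1 with log2(intensity + 100), 2 of 16 with control replicate 2 rebuilt as a second control, 8 with it as deposited and 2 of 16 with it rebuilt in place. Signs reversed with control replicate 2 as deposited for Apoc3 (-0.74), Bco1 (-0.63), Cox8b (0.11), Fam107a (-0.83), Impg1 (-0.83) and Saa4 (-0.48), and with it rebuilt in place for Pcdhgc3 (-0.78) and Ppara (1.11). Causes were not tested. No list median changed sign under quantile normalisation, median centring or the offset.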
